A study of Mus musculus with 2 samples.

Results

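The genes described here are 10 components and assembly factors of the elastic fibre, followed across the stromal cells of intestinal grafts. They are Eln, Fbn1, Fbn2, Mfap5, Mfap4, Emilin1, Fbln1, Fbln2, Fbln5 and Lox, chosen by symbol alone from the 28692 genes of each single-cell matrix, and each matched exactly 1 row. Their levels were read in 7851 of the 11568 cell barcodes of a large intestinal (LI) library and in 6269 of the 9631 barcodes of a small intestinal (SI) library, which are the cells that passed quality limits and fell into 1 of 8 stromal classes gated on marker genes other than these 10.

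An elastic fibre has a core of cross-linked elastin laid on a scaffold of fibrillin microfibrils, and it lets blood vessel walls, lung and gut stretch and recoil. Tropoelastin, the soluble product of Eln, is brought to the microfibrils by fibulins and by proteins of the interface between core and scaffold, and lysyl oxidase then links its lysines into a polymer that turns over very slowly. In the gut wall elastic fibres lie in the submucosa, around arteries and between the layers of muscle, and fibroblasts (FB) and smooth muscle cells (SMC) are the cells known to make them.

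Both groups were grafts of intestine from mid-gestation embryos of EYFP males and C57BL/6Nrj females, a donor strain that the labels give as EYFP (C57BL/6), whose cells carry a yellow fluorescent protein (YFP). Large intestine formed the LI group and small intestine the SI group. Each was placed under the kidney capsule of an adult WT mouse and removed 4 weeks later. Live YFP+ Itgb1+ cells that lacked CD45, Ter119, BP3, CD31, EpCAM and L1CAM were sorted as mesenchymal stromal cells (MSC), a gate meant to take away immune, red blood, lymphoid stromal, endothelial, epithelial and glial cells of the graft and all cells of the host. The tissue is labelled as grafted lamina propria, and the removal of graft muscle before digestion is not described. The LI library came from several pooled grafts, the number behind the SI library is not given, and all groups share the same donor line, host and sort.

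Each group had 1 library. LI against SI values therefore have no replicate check, and no test or p-value accompanies them. The LI library held 63348069 unique molecular identifiers (UMIs) and the SI library 54918006, and 9873 and 7910 cells were kept for having 500 genes or more and no more than 10% of UMIs from mitochondrial genes, with medians of 5288 and 5682 UMIs per cell. Only 26 barcode sequences occurred in both. A 3′ or a 5′ kit was used and which library had which is not stated, so kit and gut region cannot be told apart in any LI against SI value. Levels are pooled CPM, obtained by adding up a gene's UMIs over the cells of a class and dividing by all UMIs of that class, and all intervals are exact 95% intervals that cover counting error only, not the spread between grafts. Fewer transcripts per cell and fewer cells that transcribe a gene cannot be told apart in a pooled level, so shares of cells with a UMI are given beside it after each cell was thinned to 2000 UMIs.

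Fibroblast-lineage cells had at least 5 of 7 fibroblast markers, among them Dcn and Col1a1, and numbered 6984 in LI and 4873 in SI. Within them, 392 and 214 cells were gated as PDGFRAhi FB, the fibroblasts under the epithelium that make BMP ligands, and 331 and 227 as adventitial-like FB on Pi16, Dpp4 and related genes. CD81 FB, which carry Grem1, numbered 1610 and 1991, Fgfr2 FB 302 and 195, and the 4349 and 2246 fibroblasts that met no subset gate or tied between gates are called other FB. Pericyte-like cells (298 and 395) had mural markers and no Myh11, vascular muscle-like cells (219 and 612) had mural markers with at least 2 Myh11 UMIs, and visceral SMC (350 and 389) had muscle markers without the mural set. Interstitial cells of Cajal were left out of the classes compared because the SI library had 41 of them, under the minimum of 50 cells. The PDGFRAhi FB marker list summed to 2008 CPM in LI and 2228 CPM in SI in its own class against 231 and 229 CPM in other FB, and the adventitial list to 2024 and 1985 CPM against 278 and 203 CPM. The Fgfr2 FB list did not set its class apart in LI, where it summed to 10802 CPM in PDGFRAhi FB and 8644 CPM in Fgfr2 FB, nearly all of it from Adamdec1, and in SI the sums were 3821 and 9097 CPM. The CD81 FB list separated its class little from adventitial-like FB, with 2611 against 2269 CPM in LI and 3394 against 2869 CPM in SI. Cells outside the stroma held the members at unlike levels: Eln was at 2.21 CPM (0.0558 to 12.3) in the 40 SI cells gated as epithelial or other non-stromal, 113 CPM (56.4 to 202) in the 15 such LI cells, and 674 CPM (606 to 748) and 487 CPM (410.4 to 573) in the 91 LI and 47 SI cells gated as immune, which the sort was meant to remove. Mfap4 went likewise, with 4.41, 216, 1056 and 1068 CPM in the same order. No single level of free RNA can be read from these groups, and its part in the low values of other classes was not tested.

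RefSeq promoter windows were available for 5 of the 10 members, and those of the fibulins Fbln1 and Fbln5 are shown because they were the ones with no base in an annotated exon. Both genes have 2 windows, for 2 annotated starts, and the other window of each overlaps an exon and is given by its values only. Each line gives the 250 bases before the annotated start, 5′ to 3′ on the gene's own strand, and capitals mark a match to 1 of 5 promoter motifs searched on both strands. The Fbln1 window lies at chr15:85205699-85205948 (plus strand) and the Fbln5 window at chr12:101819120-101819369 (minus strand) in GRCm38.p6.
Fbln1: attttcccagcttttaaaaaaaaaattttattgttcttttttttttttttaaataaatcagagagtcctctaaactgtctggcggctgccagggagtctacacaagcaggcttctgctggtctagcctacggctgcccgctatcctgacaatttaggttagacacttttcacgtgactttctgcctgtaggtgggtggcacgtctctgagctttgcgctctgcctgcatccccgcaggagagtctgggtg
Fbln5: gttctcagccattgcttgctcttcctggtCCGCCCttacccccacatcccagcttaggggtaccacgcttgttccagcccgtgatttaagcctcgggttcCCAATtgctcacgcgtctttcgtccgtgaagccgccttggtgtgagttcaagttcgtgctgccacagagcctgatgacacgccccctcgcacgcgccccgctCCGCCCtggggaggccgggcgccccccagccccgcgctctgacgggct
The printed Fbln1 window held no match and had 46.4% G and C. The printed Fbln5 window had 65.2% G and C and held 3 matches, a CCAAT box that begins 150 bases before the start and 2 GC boxes on the opposite strand, 221 and 48 bases before it. The other windows stood in the opposite order: that of Fbln1 had 62.4% G and C and 1 match, a GC box on the opposite strand 11 bases before its start, and that of Fbln5 had 49.6% and no match. The median over 32851 RefSeq windows was 52.4% G and C. Among all these windows of 250 bases, 12.4% held the TATA box TATAAA, 33.8% the CCAAT box, 32.7% the GC box GGGCGG, 4.46% the AP-1 motif TGACTCA and 12.6% the TEAD motif GGAATG. A match is a description of letters in these windows and not a site of binding.

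**Figure D1:**
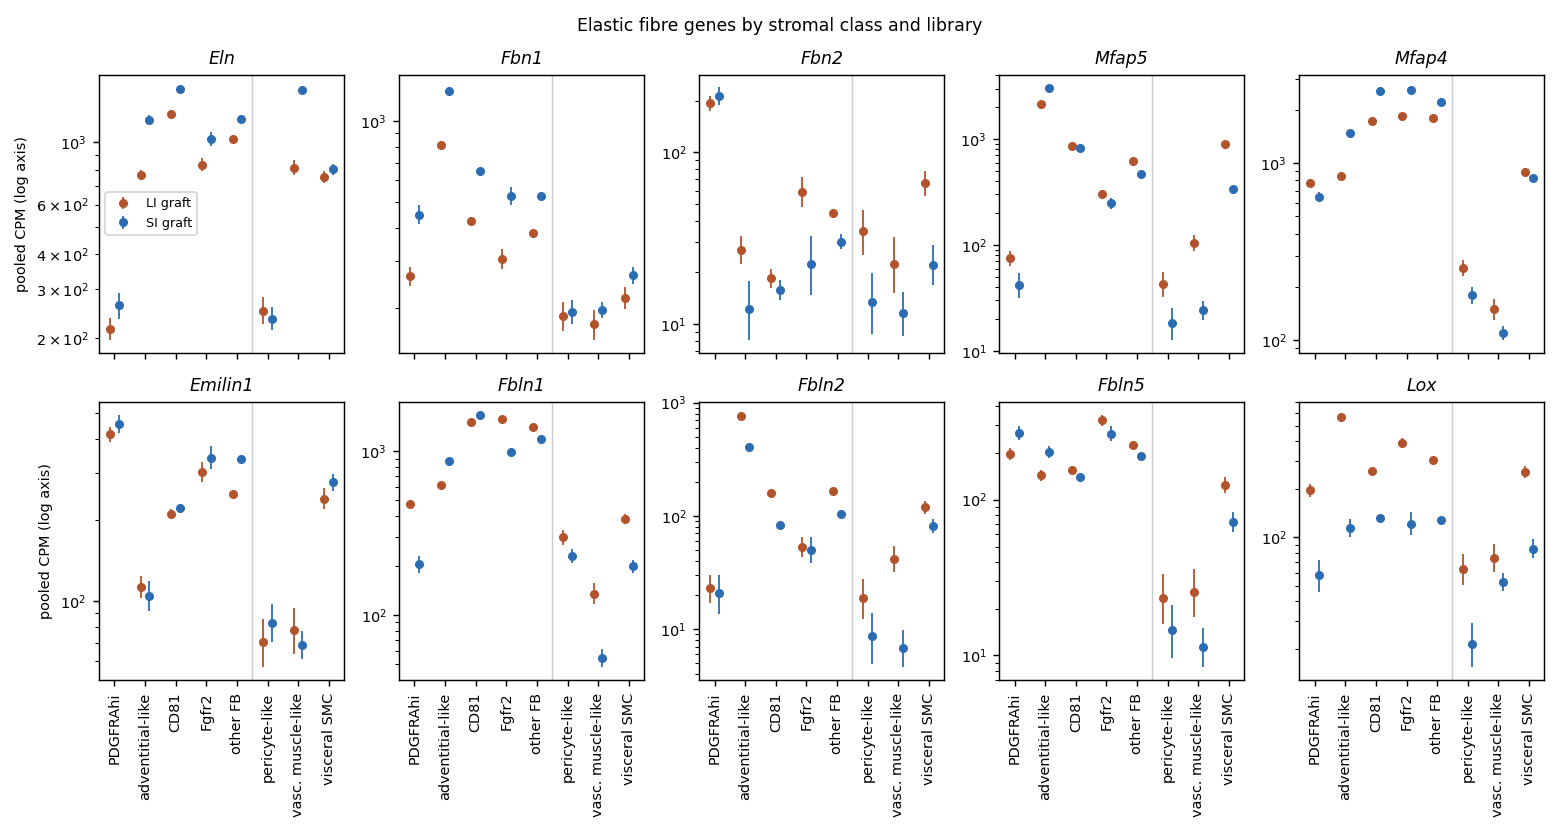
Pooled CPM of the 10 elastic fibre genes on a log axis in the 8 stromal classes, 1 panel per gene, with points for the LI graft and the SI graft and exact Poisson 95% intervals for counting error. Eln peaks in CD81 FB in both libraries and falls to its lowest levels in PDGFRAhi FB and pericyte-like cells, while Mfap5 and Fbln2 peak in adventitial-like FB and Fbn2 and Emilin1 in PDGFRAhi FB.

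Eln, which encodes tropoelastin, was detected in every stromal class, at levels that spanned 5.86-fold in LI and 6.59-fold in SI. In fibroblast-lineage cells as a whole it stood at 1021 CPM (1012 to 1031) in LI and 1323 CPM (1310.0 to 1336) in SI, and thinned cells were positive in 62.04% and 73.6%. CD81 FB had the highest level in both libraries, 1267 CPM (1247 to 1286) in LI and 1549.9 CPM (1529.8 to 1570.3) in SI. In SI the CD81 FB interval overlapped that of vascular muscle-like cells, which had 1536 CPM (1499 to 1574), whereas in LI these cells had 814 CPM (766 to 864) and stood below CD81 FB, other FB and, within overlapping intervals, Fgfr2 FB. Other FB had 1025 CPM in LI and 1212 CPM in SI, Fgfr2 FB 832 and 1029 CPM, and adventitial-like FB 768 and 1207 CPM, all between these extremes. Visceral SMC had Eln at 753 CPM in LI and 801 CPM in SI. In SI this was below every fibroblast class except PDGFRAhi FB, and in LI it overlapped adventitial-like FB. The lowest levels were in PDGFRAhi FB, 216 CPM in LI and 262 CPM in SI, and in pericyte-like cells, 252 CPM in LI and 235 CPM in SI, and these 2 classes overlapped within each library. Both lay below the cells gated as immune and above those gated as epithelial or other non-stromal in their library. The latter had Eln at 113 CPM (56.4 to 202) in LI, overlapping PDGFRAhi FB, and at 2.21 CPM (0.0558 to 12.3) in SI. The part of free RNA in these low levels was not tested.

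Eln also separated the 2 mural classes. Vascular muscle-like cells exceeded pericyte-like cells by a log2 ratio of 1.65 (1.48 to 1.83) in LI and 2.66 (2.52 to 2.79) in SI (all log2 ratios here have 10 CPM added to both levels). Thinned cells with an Eln UMI made up 51.6% (44.7 to 58.5) and 58.1% (54.01 to 62.05) of vascular muscle-like cells and 21.6% (16.9 to 26.8) and 23.6% (19.3 to 28.3) of pericyte-like cells. The share was higher in the muscle class of each library and the intervals did not overlap. Against fibroblast-lineage cells the vascular muscle-like class went opposite ways, -0.32 (-0.41 to -0.24) in LI and 0.21 (0.18 to 0.25) in SI. Every other member was lower in vascular muscle-like cells than in fibroblasts in both libraries, with the smallest gap for Fbn2, -0.72 in LI and -0.88 in SI, and large ones for Mfap4, -3.39 in LI and -4.27 in SI, and Mfap5, -2.80 in LI and -4.54 in SI. The visceral muscle list, of which Myh11 defines the class, summed to 3902 CPM in LI and 4764 CPM in SI in these cells, with all 7 of 7 markers detected in both, and its part in the Eln difference was not tested.

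Fbn1, the main fibrillin of adult microfibrils, was highest in adventitial-like FB, 817 CPM (789 to 845) in LI and 1293 CPM (1246 to 1341) in SI. The next class in both libraries was CD81 FB with 425 CPM in LI and 649 CPM in SI, and its intervals stayed clear of those above. Fgfr2 FB had 304 CPM in LI and 526 CPM in SI, other FB 382 and 526 CPM, and PDGFRAhi FB 263 and 447 CPM. All muscle and mural classes were low, from 173 to 218 CPM in LI and from 194 to 265 CPM in SI. Thinned cells were Fbn1-positive in 46.99% of LI and 62.1% of SI fibroblasts, and in 27.9% and 28.9% of pericyte-like cells.

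Fbn2, the fibrillin made mainly in embryonic tissue, had a different distribution. PDGFRAhi FB had 193 CPM (175 to 212) in LI and 213 CPM (189 to 239.9) in SI, and no other class went above 66.1 CPM. The next class was visceral SMC in LI with 66.1 CPM (55.5 to 78.1) and other FB in SI with 30.3 CPM (27.2 to 33.6). CD81 FB, the class with most Eln, had 18.5 CPM in LI and 15.9 CPM in SI, and adventitial-like FB, the class with most Fbn1, had 27.2 CPM in LI and 12.3 CPM in SI. Thinned cells were positive in 31.9% (27.2 to 36.8) and 36.8% (30.3 to 43.8) of PDGFRAhi FB but in 8.34% and 5.44% of all fibroblasts. The 2 fibrillins were thus highest in different fibroblast subsets in each library. Outside PDGFRAhi FB most neighbouring classes overlapped. The lowest SI levels were 11.6 CPM (8.59 to 15.4) in vascular muscle-like cells and 12.3 CPM (8.10 to 17.9) in adventitial-like FB, below the 33.8 CPM (16.2 to 62.1) of SI cells gated as immune, with overlapping intervals for the latter class.

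Mfap5, a small glycoprotein that decorates the fibrillin microfibril, spanned 50.01-fold in LI and 164-fold in SI between its lowest and highest class. Adventitial-like FB had 2154 CPM (2109 to 2199) in LI and 3016 CPM (2943 to 3089) in SI. In LI the next class was visceral SMC with 892 CPM (852 to 934), which overlapped CD81 FB at 867 CPM (851 to 883). In SI, CD81 FB came next with 817 CPM (802 to 831) and visceral SMC had 339.8 CPM (318 to 363). The low end was formed by PDGFRAhi FB with 74.9 CPM in LI and 42.05 CPM in SI and pericyte-like cells with 43.1 CPM in LI and 18.3 CPM in SI. Vascular muscle-like cells joined them in SI, with 105 CPM in LI and 24.2 CPM in SI. Thinned adventitial-like FB were positive in 84.8% (80.4 to 88.5) and 92.1% (87.8 to 95.2), against 6.01% and 1.91% of PDGFRAhi FB. Within fibroblasts the transcript was uneven between cells: the 10% of thinned fibroblasts with most Mfap5 UMIs held 51.4% of them in LI and 56.6% in SI, and the median cell had 0.

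Mfap4 and Emilin1 encode proteins of the interface between microfibril and elastin. Mfap4 was detected in most fibroblasts, with thinned cells positive in 81.2% of LI and 88.1% of SI fibroblasts and a median of 3 and 4 UMIs per thinned cell. Fgfr2 FB had 1868 CPM (1804 to 1934) in LI and 2612 CPM (2521 to 2705) in SI. This overlapped other FB in LI, with 1810.4 CPM (1793 to 1828), and CD81 FB in SI, with 2582 CPM (2556 to 2608). Adventitial-like FB had 852 CPM in LI and 1482 CPM in SI and visceral SMC 899 CPM in LI and 824 CPM in SI. PDGFRAhi FB, at 772 CPM in LI and 643 CPM in SI, were lowest among the fibroblasts, and vascular muscle-like cells, at 149 CPM in LI and 109.5 CPM in SI, were lowest of all.

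Emilin1, whose product anchors elastin to microfibrils, was highest in the fibroblast class in which Mfap4 was lowest. PDGFRAhi FB had 418 CPM (391 to 445) in LI and 456 CPM (421 to 495) in SI, and next came Fgfr2 FB with 302 CPM (276 to 329) in LI and 342 CPM (309 to 376) in SI. Adventitial-like FB had 113 CPM (103 to 124) in LI and 105 CPM (91.6 to 119) in SI, the lowest of the fibroblast classes. Visceral SMC, at 241 CPM in LI and 277 CPM in SI, were close to the fibroblast-lineage level of 236 CPM in LI and 272 CPM in SI, and a similar share of thinned cells was positive, 38.9% and 42.3% of visceral SMC against 37.3% and 39.5% of fibroblasts. Emilin1 was the member with the least difference between muscle and fibroblasts in both libraries, -0.03 (-0.15 to 0.10) in LI and -0.03 (-0.13 to 0.08) in SI as log2 fibroblast over visceral SMC.

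The 3 fibulins were highest in 3 different classes in SI, whereas in LI Fbln1 and Fbln5 were both highest in Fgfr2 FB. Fbln1, which binds elastin and basement membrane, was positive in 78.96% and 79.8% of thinned fibroblasts. In LI, Fgfr2 FB had 1561 CPM (1502 to 1621) and overlapped CD81 FB with 1502 CPM (1481 to 1523). In SI, CD81 FB had 1649.8 CPM (1629 to 1671) and stood clear of other FB with 1182 CPM (1162 to 1201) and Fgfr2 FB with 986 CPM (930.4 to 1044). PDGFRAhi FB had 475 CPM (447 to 505) in LI and 204 CPM (180.4 to 230.1) in SI, and vascular muscle-like cells were lowest with 135 CPM (116 to 156) in LI and 54.8 CPM (47.9 to 62.3) in SI. Pericyte-like cells had more Fbln1 than vascular muscle-like cells in both libraries, with log2 vascular muscle-like over pericyte-like of -1.08 (-1.33 to -0.84) in LI and -1.89 (-2.09 to -1.68) in SI, opposite in sign to Eln.

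Fbln2, a fibulin of vessel walls and stroma, was far higher in adventitial-like FB than in any other class. These had 758 CPM (732 to 785) in LI and 404 CPM (378 to 432) in SI, and the next class in both libraries, other FB, had 164 CPM (159 to 169.7) in LI and 103 CPM (97.2 to 109) in SI. Thinned cells were positive in 57.01% (51.5 to 62.4) and 45.8% (39.2 to 52.5) of adventitial-like FB and in 1.57% and 2.87% of PDGFRAhi FB. Adventitial-like cells were also the deepest class, with medians of 11487 and 9709 UMIs, so the unthinned shares of 88.2% and 83.3% stand higher. Pericyte-like cells had 18.9 CPM in LI and 8.63 CPM in SI.

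Fbln5, whose product carries tropoelastin to the microfibril and is needed for elastic fibre assembly, was highest in Fgfr2 FB in LI with 324 CPM (298 to 352) and in PDGFRAhi FB in SI with 269 CPM (242 to 299). The SI value overlapped that of Fgfr2 FB, 266 CPM (237 to 297). CD81 FB, highest in Eln, had 156 CPM in LI and 141 CPM in SI. Visceral SMC had 124 CPM (109.7 to 141) in LI and 72.4 CPM (62.4 to 83.6) in SI, and both mural classes were low with 23.4 CPM in LI and 14.6 CPM in SI in pericyte-like and 25.5 CPM in LI and 11.4 CPM in SI in vascular muscle-like cells. These mural levels were below those of cells gated as immune, 172 CPM (139 to 211) in LI and 149 CPM (108 to 199.6) in SI, and in SI above the 40 non-stromal cells, which had no Fbln5 UMI.

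Lox, the lysyl oxidase that cross-links elastin and collagen, was the member that differed most between the libraries in fibroblast-lineage cells. In LI it was highest in adventitial-like FB, 564 CPM (541 to 588), followed by Fgfr2 FB with 389.9 CPM (361 to 421) and other FB with 306 CPM (299 to 313). In SI the 4 classes CD81 FB, other FB, Fgfr2 FB and adventitial-like FB lay between 115 and 132 CPM, each overlapping its neighbour. Visceral SMC had 257 CPM (236 to 279.8) in LI and 85.2 CPM (74.3 to 97.3) in SI. Pericyte-like cells were lowest in both, with 63.5 CPM (50.6 to 78.6) in LI and 21.6 CPM (15.4 to 29.4) in SI.

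On GRCm38, Eln lies on chromosome 5 (134702593 to 134747323, minus strand), Fbn1 on chromosome 2 (125300594 to 125507993, minus) and Fbn2 on chromosome 18 (58008623 to 58210487, minus). Mfap5 and Fbln2 both lie on chromosome 6, at 122505845 to 122529290 and 91212455 to 91272540 on the plus strand, and Emilin1 lies on chromosome 5 (30913402 to 30921277, plus). Mfap4 is on chromosome 11 (61485431 to 61488900, plus), Fbln1 on chromosome 15 (85205949 to 85286535, plus), Fbln5 on chromosome 12 (101746565 to 101819055, minus) and Lox on chromosome 18 (52516067 to 52529867, minus). All are protein coding. Mfap4 shares exon bases with Mapk7 on the opposite strand, which had 1026 UMIs in LI, and Eln, Fbn1 and Fbn2 each with an opposite-strand gene of at most 142 UMIs and Lox with one that was not counted, so reads in those bases depend on the use of strand in counting, which is not given in the sources used here.

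Across the 8 classes, 7 of the 10 members had their highest level in the same class in both libraries: Eln in CD81 FB, Fbn1, Mfap5 and Fbln2 in adventitial-like FB, Fbn2 and Emilin1 in PDGFRAhi FB and Mfap4 in Fgfr2 FB. Among all 4078 genes compared in the same way, 2038 did so (50%). The top class of Mfap4 overlapped the next class in both libraries, and that of Eln did so in SI. Eln left this list with classes from clusters, doublets removed, female cells alone and the mean of per-cell CPM. Mfap4 left it in the same settings and with stricter gates. Fbn1, Fbn2, Mfap5, Emilin1 and Fbln2 stayed in it under each of these. Fbln1, Fbln5 and Lox had different top classes.

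**Figure D2:**
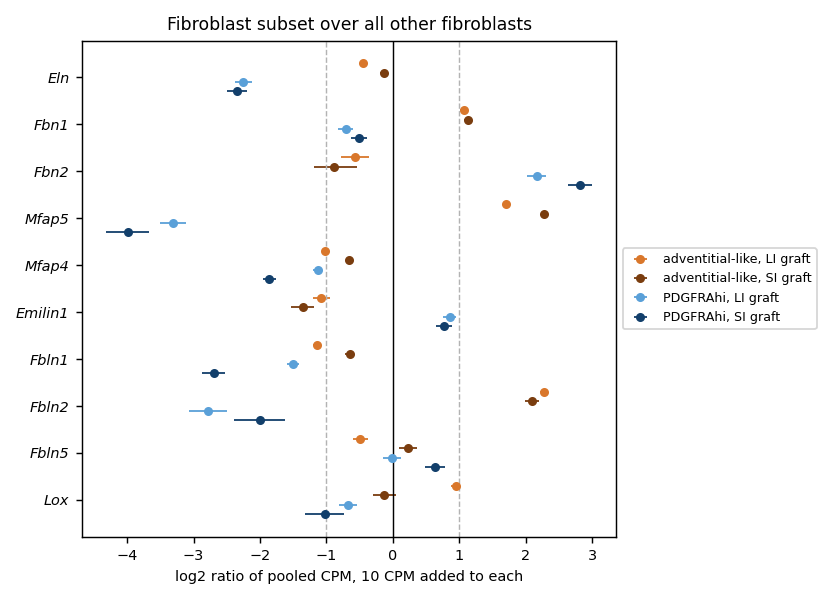
Log2 ratio of pooled CPM (10 CPM added to each) of the 10 members in adventitial-like FB and in PDGFRAhi FB over all other fibroblasts, as points for the LI graft and the SI graft with 95% counting intervals. The solid line marks no difference and the dashed lines 2-fold. Fbn1, Mfap5 and Fbln2 lie past 2-fold to the right in adventitial-like FB in both libraries, and Fbn2 alone does so in PDGFRAhi FB, where 5 members lie past 2-fold to the left.

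Which members set the fibroblast subsets apart was read from the ratio of each subset to all other fibroblasts, with a member counted when it passed 2-fold in the same direction in both libraries. Adventitial-like FB had 3 of 10 members higher, against 83 of 8300 genes (1%). They were Fbn1 with 1.06 (1.01 to 1.12) in LI and 1.13 (1.08 to 1.19) in SI, Mfap5 with 1.71 (1.67 to 1.74) in LI and 2.27 (2.23 to 2.31) in SI and Fbln2 with 2.27 (2.21 to 2.33) in LI and 2.10 (1.99 to 2.20) in SI. Emilin1 was the single member past 2-fold lower, -1.08 (-1.20 to -0.95) in LI and -1.36 (-1.54 to -1.19) in SI, against 129 of 8300 genes (1.55%). The other 6 members passed 2-fold in both libraries in neither direction, and the median over the 10 was -0.47 in LI and -0.13 in SI, against -0.10 and -0.06 over all genes. Fbn1 was just past 2-fold, and it dropped out of the count when classes were taken from clusters and when female cells alone were used. Emilin1 dropped out under TMM scaling. Lox stood at 0.95 (0.88 to 1.01) in LI and -0.13 (-0.30 to 0.04) in SI, above other fibroblasts in LI and not in SI, although the SI value turned to 0.47 among female cells alone. The mesothelial list, also read because mesothelium covers the gut, summed to 7.59 and 3.19 CPM in adventitial-like FB with 4 and 6 of 7 markers at 0.

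PDGFRAhi FB had 1 of 10 members higher, against 187 of 8560 genes (2.18%), and 5 lower, against 180 (2.1%). The 1 higher was Fbn2 with 2.17 (2.02 to 2.31) in LI and 2.82 (2.64 to 2.998) in SI. The 5 lower were Eln with -2.25 in LI and -2.34 in SI, Mfap5 with -3.31 in LI and -3.99 in SI, Mfap4 with -1.13 in LI and -1.86 in SI, Fbln1 with -1.50 in LI and -2.70 in SI and Fbln2 with -2.79 in LI and -2.01 in SI. The subepithelial class thus had low levels of the core gene, of a microfibril glycoprotein, of an interface protein and of 2 fibulins. Emilin1 was above other fibroblasts by less than 2-fold, 0.86 in LI and 0.77 in SI, and Fbln5 stood at -0.01 in LI and 0.63 in SI. The median over the 10 members was -0.92 and -1.44, against 0.10 and 0.20 over all genes.

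CD81 FB and Fgfr2 FB were set against all other fibroblasts in the same way. In CD81 FB, Eln was at 0.46 in LI and 0.46 in SI and Fbn2 at -1.16 in LI and -1.001 (-1.14 to -0.85) in SI. The SI interval of Fbn2 thus included values short of 2-fold. In Fgfr2 FB, Mfap5 was at -1.40 in LI and -1.67 in SI, Fbln2 at -1.81 in LI and -1.02 in SI and Fbln5 at 0.71 in LI and 0.61 in SI. Fgfr2 FB were thus low in Mfap5 and Fbln2, which were high in adventitial-like FB, and higher in Fbln5, while CD81 FB were low in Fbn2, the gene highest in PDGFRAhi FB. The share of all genes past 2-fold was not counted for these 2 classes.

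Fibroblasts and visceral SMC, both known makers of elastic fibres, differed past 2-fold in both libraries for 1 of 10 members. Fibroblasts were higher for 1, against 118 of 8525 genes (1.38%), and lower for 0, against 205 (2.4%). The 1 member was Fbln1, 1.74 (1.64 to 1.84) in LI and 2.69 (2.57 to 2.81) in SI as log2 fibroblast over visceral SMC. Mfap4 reached 0.87 in LI and 1.46 in SI and Fbn1 0.94 in LI and 1.23 in SI, both short of 2-fold in LI alone. Eln was at 0.43 in LI and 0.72 in SI and Mfap5 at -0.17 in LI and 1.19 in SI, so Mfap5 stood higher in muscle in LI and higher in fibroblasts in SI. With stricter gates the LI ratio of Mfap5 turned to 0.33, higher in fibroblasts. The count rose to 4 with stricter gates, when Fbn1, Mfap4 and Fbln5 joined Fbln1, and was 1 to 4 over the settings run. The 7 fibroblast-lineage markers summed to 18768 and 20519.7 CPM in visceral SMC against 42407 and 53928 CPM in fibroblasts. The Fgfr2 FB list went the other way, with 4179 and 3154 CPM in visceral SMC against 3205 and 2382 CPM in fibroblasts, and the part of fibroblast RNA in the muscle values was not tested.

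Against pericyte-like cells, 9 of 10 members were past 2-fold higher in fibroblasts in both libraries, against 375 of 8734 genes (4.29%), and 0 were past 2-fold lower, against 414 (4.74%). The exception was Fbn2, 0.26 (-0.08 to 0.60) in LI and 0.76 (0.40 to 1.09) in SI. The largest ratio in each library was that of Mfap5, 3.92 (3.61 to 4.24) in LI and 4.81 (4.48 to 5.13) in SI. The median over the members was 2.12 and 2.46, against -0.10 and -0.13 over all genes. Dcn in pericyte-like cells was at 14.6% of its fibroblast level in LI and 8.60% in SI. The 6 members Eln, Fbn1, Fbn2, Emilin1, Fbln1 and Lox stood above that share in both libraries, with Fbn2 at 79.9% and 45.5%, Fbn1 at 43.6% and 30.5% and Emilin1 at 29.7% and 30.6%. Mfap5, Fbln2 and Fbln5 stood below it in both, with Mfap5 at 5.42% and 2.34% and Fbln2 at 9.14% and 7.90%. The part of fibroblast RNA in the pericyte-like values was not tested.

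**Figure D3:**
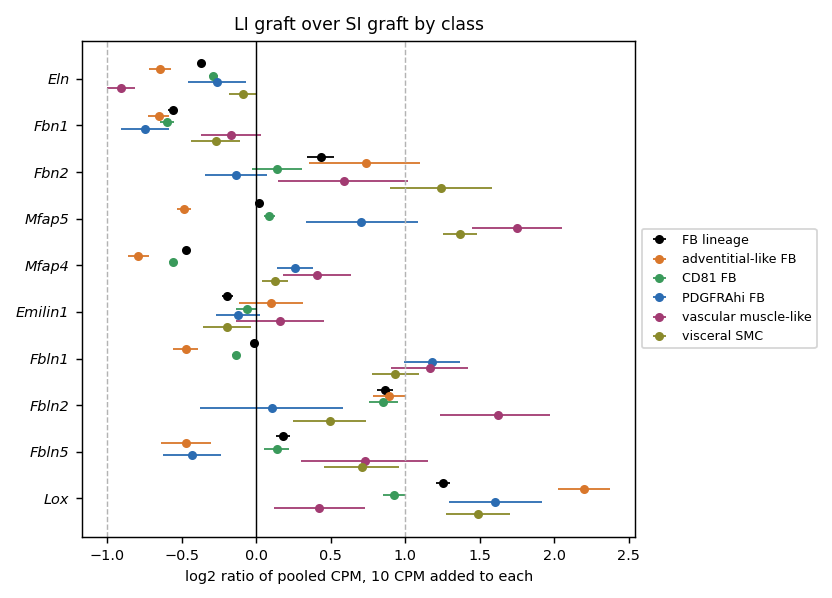
Log2 ratio of LI over SI pooled CPM (10 CPM added to each) for each member (rows) in fibroblast-lineage cells and in 5 of the classes, as points with 95% counting intervals, a solid line at no difference and dashed lines at 2-fold. Lox lies to the right in every class shown and past 2-fold in fibroblast-lineage cells, while Mfap5 and Fbln1 change sign between classes.

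Between the gut regions, Lox was the 1 of 10 members past 2-fold in fibroblast-lineage cells, against 150 of 8594 genes in either direction (1.75%) and 91 higher in LI (1.06%). Its level was 314 CPM (309 to 319.5) in LI and 126 CPM (122 to 129.8) in SI, a log2 ratio of 1.25 (1.21 to 1.30), and thinned cells were positive in 36.4% (35.2 to 37.6) and 20.03% (18.9 to 21.2). LI was higher in each of the 8 classes, with ratios of 2.20 (2.02 to 2.38) in adventitial-like FB, 1.60 (1.29 to 1.92) in PDGFRAhi FB, 1.60 (1.36 to 1.85) in Fgfr2 FB and 1.49 (1.28 to 1.70) in visceral SMC. The smallest was 0.42 (0.12 to 0.73) in vascular muscle-like cells. Among female vascular muscle-like cells the interval included no difference, 0.14 (-0.22 to 0.49). Fbln2 was next, 207 CPM (202 to 211) in LI and 109 CPM (106 to 113) in SI and a log2 ratio of 0.86 (0.81 to 0.91), and it passed 2-fold when classes were taken from clusters.

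The core gene and its main scaffold gene lay the other way. Fbn1 was lower in LI, with a log2 ratio of -0.56 (-0.59 to -0.53) in fibroblast-lineage cells, and below SI in all 5 fibroblast classes, from -0.77 (-0.94 to -0.61) in Fgfr2 FB to -0.45 (-0.50 to -0.41) in other FB. In pericyte-like and vascular muscle-like cells the Fbn1 interval included no difference, -0.06 (-0.28 to 0.17) and -0.17 (-0.37 to 0.03). Eln was at -0.37 (-0.39 to -0.35) in fibroblast-lineage cells and at -0.91 (-1.001 to -0.82) in vascular muscle-like cells, where the LI level of 814 CPM was far under the SI level of 1536 CPM. Mfap4 was at -0.47 (-0.49 to -0.46) and Emilin1 at -0.19 (-0.23 to -0.15).

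Mfap5 and Fbln1 were nearly level between the regions in fibroblast-lineage cells, 0.02 (-0.01 to 0.04) and -0.01 (-0.03 to 0.00), and both changed sign over the processing settings, yet they were not level within classes. Mfap5 was higher in LI in vascular muscle-like cells, 1.75 (1.45 to 2.05), and in visceral SMC, 1.37 (1.25 to 1.48), and lower in LI in adventitial-like FB, -0.48 (-0.53 to -0.44). The vascular muscle-like value rested on few cells: the 191 of 219 LI cells with no MHC class II marker held 43 of the 140 Mfap5 UMIs, and among cells without a marker the ratio was 0.62 (0.18 to 1.05), against 1.10 (0.97 to 1.23) in visceral SMC. Fbln1 was higher in LI in PDGFRAhi FB, 1.18 (0.99 to 1.37), and in vascular muscle-like cells, 1.16 (0.91 to 1.42), and lower in adventitial-like FB, -0.47 (-0.56 to -0.39). Among female cells alone the Fbln1 ratio in PDGFRAhi FB was 0.50 (0.29 to 0.72). In visceral SMC the share of thinned Mfap5-positive cells was 54.8% (49.3 to 60.2) in LI and 26.1% (21.7 to 30.9) in SI. Fbn2 and Fbln5 had 0.43 (0.34 to 0.52) and 0.18 (0.13 to 0.23) in fibroblast-lineage cells. The median over all 10 members was 0.00, against 0.01 over all genes.

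Other features moved with the region as well. The mural list summed to 190.4 CPM in LI and 728 CPM in SI fibroblasts, of which Rgs5 alone gave 665 CPM in SI, with 9 of 9 markers detected in both. The visceral muscle list was at 147 and 156 CPM, the immune list at 39.7 and 43.9 CPM and the epithelial list at 6.87 and 4.72 CPM. Genes of MHC class II summed to 435 and 715 CPM, and cells called male from Y-linked transcripts made up 8.08% and 23.05% of fibroblasts. The part of these in the member values was not tested except as follows.

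**Figure D4:**
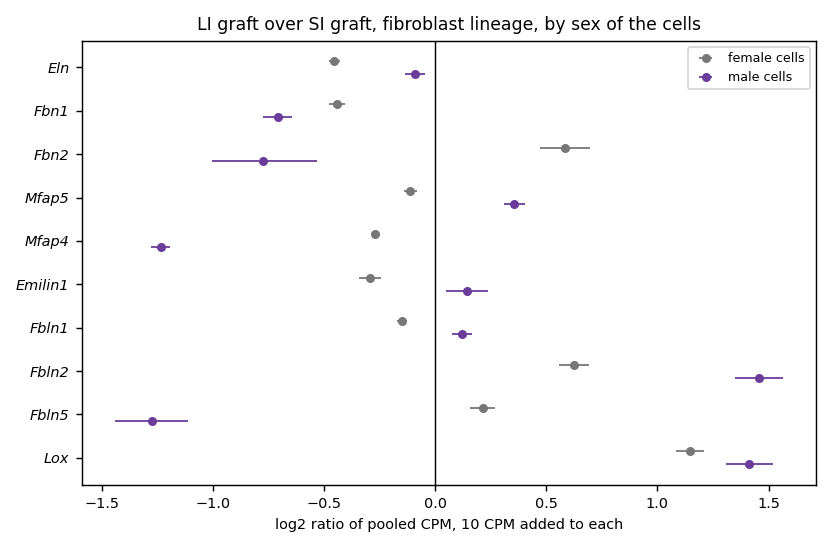
Log2 ratio of LI over SI in fibroblast-lineage cells for each member, for female cells and for male cells (10 CPM added to each level), with 95% counting intervals and a line at no difference. Lox and Fbln2 lie to the right in both sexes, whereas Fbn2 and Fbln5 lie to the right in female cells and to the left in male cells.

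Cells called male and cells called female were present in each library, and the comparison was repeated within each. Male cells carried a Y-linked UMI and no Xist, female cells Xist and no Y-linked UMI, and there were 564 and 5832 such fibroblasts in LI and 1123 and 2856 in SI. Male cells were deeper, with medians of 8690.5 against 5209 UMIs in LI and 7909 against 5390.0 in SI, and the part of depth in these values was not tested. Lox was higher in LI in both, 1.15 (1.09 to 1.21) in female and 1.41 (1.31 to 1.52) in male cells, and so was Fbln2, 0.62 (0.56 to 0.69) and 1.46 (1.35 to 1.57). Fbn1 was lower in LI in both, -0.44 and -0.71, and Mfap4 likewise, -0.27 and -1.23. These values pool the fibroblast classes. In LI, 20.2% of CD81 FB and 9.37% of adventitial-like FB were male. The male shares were 4.85% in PDGFRAhi FB, 4.25% in other FB and 1.32% in Fgfr2 FB, so class and sex overlap.

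Fbln5 split by sex in LI. Male LI fibroblasts had 51.6 CPM and female ones 231 CPM, whereas in SI the levels were 139 and 198 CPM. Log2 LI over SI was 0.21 (0.16 to 0.27) in female and -1.27 (-1.44 to -1.11) in male cells. Fbn2 showed a like split, with 13.6 CPM in male and 50.04 CPM in female LI fibroblasts and 30.3 and 30.04 CPM in SI. MHC class II genes moved with sex in LI: 246 male LI fibroblasts had at least 3 MHC class II markers and 145 had none, against 177 and 4547 female ones. Among fibroblasts with no MHC class II marker, Fbln5 was still lower in male cells, -1.67 (-1.98 to -1.38) in LI and -0.43 (-0.56 to -0.31) in SI. The labels tie no cell to an embryo, so sex and embryo cannot be told apart. Class and sex overlap as well. CD81 FB, the fibroblast class with the largest male share in LI, had the lowest LI level of Fbn2. In Fbln5 they stood below Fgfr2 FB and other FB. The part of class in these splits was not tested.

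The higher LI level of Lox was not shared by all states. Fibroblasts with no MHC class II marker had 297 CPM in LI and 138 CPM in SI among female cells, a log2 LI over SI of 1.05 (0.98 to 1.13). Among male cells without a marker the levels were 132 CPM in LI and 117 CPM in SI, a log2 ratio of 0.17 (-0.09 to 0.42), over 145 and 543 cells. Male LI fibroblasts with at least 3 markers had 374 CPM and the male SI ones 117 CPM. The interval for male cells without a marker included no difference, and in the other groups given the LI and SI levels did not overlap in their intervals.

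The MHC class II state went with several members in both sexes of the LI graft. Among female LI fibroblasts, those with at least 3 markers had more Mfap5 than those with none, 1108 against 683 CPM, and more Fbln2, 280.3 against 178 CPM. Within female LI CD81 FB the Mfap5 levels were 798 against 779.7 CPM, with overlapping intervals, whereas within female LI other FB they were 1072 against 536 CPM. Male LI fibroblasts went the same way as female LI fibroblasts pooled over classes, with Mfap5 at 1365 against 545 CPM and Fbln2 at 376 against 104 CPM. Fbln1 went the other way, with 951 against 1348 CPM in female and 868 against 2022 CPM in male LI fibroblasts. In SI, Mfap5 was lower in fibroblasts of this state, with log2 ratios of -0.23 (-0.35 to -0.12) in female and -0.43 (-0.50 to -0.35) in male cells. In LI, adventitial-like FB and CD81 FB held more cells in this state than the other fibroblast classes, 14.8% and 19.3%, against 2.04% of PDGFRAhi FB, so class and state overlap.

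Cycling fibroblasts, those with at least 3 cell cycle markers, had less of the core gene when the subsets were pooled. Eln was at 685 against 1041 CPM in LI and 718 against 1359.5 CPM in SI. Mfap4 and Fbln1 were lower as well, with log2 ratios of -0.91 and -1.08 for Mfap4 and -0.77 and -1.18 for Fbln1. Emilin1 was higher in both, 0.31 (0.12 to 0.50) and 0.40 (0.21 to 0.57). Few cells cycled, 1.13% and 1.52% of fibroblasts, and PDGFRAhi FB, low in Eln, Mfap4 and Fbln1 and high in Emilin1, cycled most among fibroblasts, at 3.57% and 5.14%, so class and state overlap. Within other FB the Eln ratio was -0.74 (-0.93 to -0.56) in LI, over 50 cycling cells, and -1.98 (-2.25 to -1.72) in SI, over 38. Within the 23 cycling CD81 FB of SI the Eln interval included no difference, -0.07 (-0.22 to 0.07), while Mfap4 was at -0.49 (-0.62 to -0.36) and Fbln1 at -0.75 (-0.94 to -0.58).

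**Figure D5:**
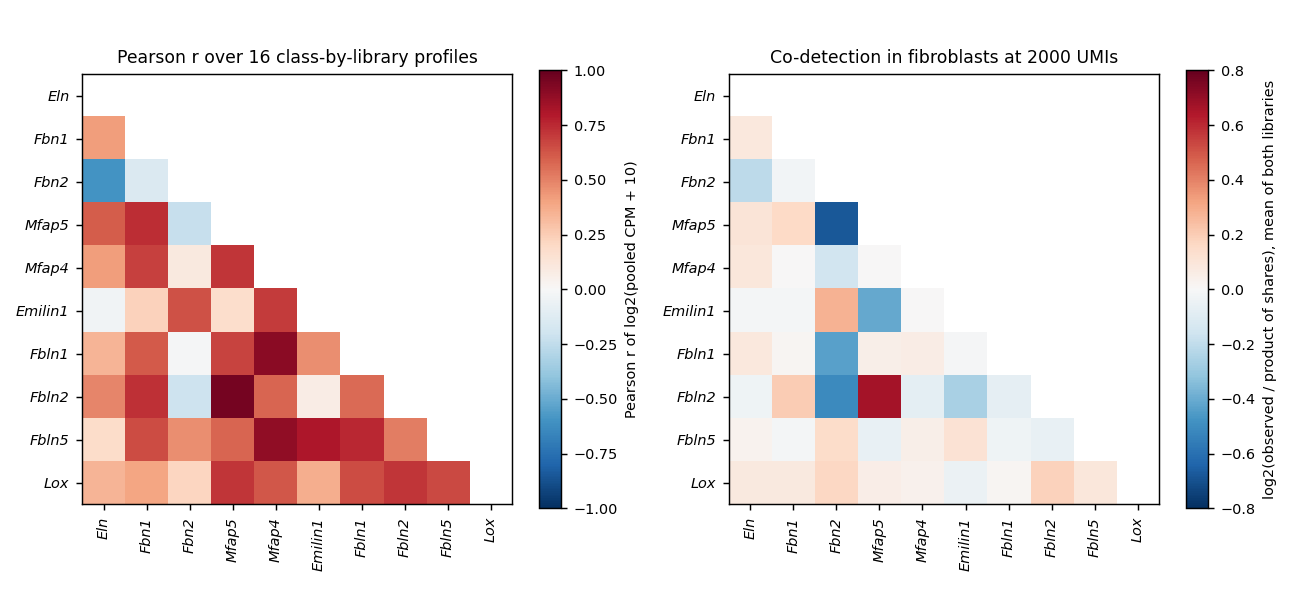
Heat maps of the 45 pairs of members: on the left the Pearson r of their log2 levels over the 16 class-by-library profiles, on the right the log2 of the observed share of thinned fibroblasts with both transcripts over the product of the single shares, as the mean of both libraries. Mfap5 with Fbln2 is the highest pair in both measures, and Fbn2 stands low with Mfap5 and Fbln2.

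The members did not vary as 1 block. Over the 16 class-by-library profiles, which share 2 libraries and are not independent, the 45 pairs had a median Pearson r of 0.57, from -0.60 for Eln with Fbn2 to 0.95 for Mfap5 with Fbln2. Other high pairs were Mfap4 with Fbln1 (0.90), Mfap4 with Fbln5 (0.89) and Emilin1 with Fbln5 (0.81). Fbn2 gave 5 of the 6 negative pairs. No p-value is given, since the profiles come from only 2 libraries.

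Over all thinned fibroblasts of a library, with the subsets pooled, the share of cells with both transcripts was compared with the product of the single shares, so differences between subsets are part of the measure. Mfap5 and Fbln2 were found together 1.55 times as often in LI and 1.63 times as often in SI, the highest of the 45 pairs. Fbn2 and Emilin1 followed with 1.22 and 1.21. The lowest were Fbn2 with Mfap5, 0.711 and 0.548, and Fbn2 with Fbln2, 0.681 and 0.722. The median over pairs was 1.01 in both libraries. Eln with Fbn1, the core and its main scaffold gene, stood at 1.08 and 1.03.

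Among 4766 genes that are neither members nor gate markers, those most alike each member in level over the 16 profiles were ranked by Pearson r. Mfap5 was most like Serpinf1 (0.98) and Clec11a (0.97), and Fbln2 like Serpinf1 (0.97) and Il33 (0.96), so Serpinf1 led both lists. Mfap4 was most like Lpar1 (0.98) and Olfml3 (0.98), Emilin1 like Ghr (0.95) and Arhgap28 (0.94) and Fbln5 like Ssc5d (0.96) and Dab2 (0.96). Fbn1 was most like Colgalt1 (0.96) and Kdelr1 (0.95), Fbn2 like Adam19 (0.94) and Tox (0.93) and Fbln1 like Gaa (0.96) and Ctsf (0.95). The least close were Eln, with Ndn (0.80) and Col14a1 (0.77), and Lox, with Rps29 (0.90) and Serpina3n (0.89). With so many candidates and 16 profiles, a high r is a description of these libraries.

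Another 30 genes of the pathway were read beside the members: further fibulins and microfibril genes, latent TGFβ binding proteins, other lysyl oxidases, ADAMTS-like proteins and proteases that cut elastin. The 4 highest in fibroblasts were Mmp2, a gelatinase, at 658 CPM in LI and 584 CPM in SI, Ltbp4, a latent TGFβ binding protein needed for elastic fibre assembly, at 459.8 and 517 CPM, the microfibril gene Mfap2 at 421 and 407 CPM, and the lysyl oxidase Loxl1 at 286 and 315 CPM. Of 22 partners that could be compared, 0 were past 2-fold higher in LI fibroblasts, against 91 of 8594 genes (1.06%), and 1 lower. In either direction the count was 1 of 22, against 150 of 8594 genes (1.75%). That 1 was Hmcn1, which encodes the large fibulin-like protein hemicentin, at 8.89 CPM in LI and 46.4 CPM in SI, a log2 ratio of -1.58 (-1.67 to -1.49). Loxl1, the relative of Lox tied to elastic fibre upkeep, was at -0.13, and Loxl2 at -0.35, so the higher LI level of Lox was not shared by these 2.

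By class, 1 of 20 partners was higher past 2-fold in adventitial-like FB in both libraries, Emilin2 with 1.49 in LI and 2.59 in SI, against 1% of all genes, and 1 lower, Adamts17 with -1.42 in LI and -1.65 in SI, against 1.55%. In PDGFRAhi FB, 2 of 22 were higher, the fibulins Efemp1 with 1.47 in LI and 2.23 in SI and Fbln7 with 1.58 in LI and 2.06 in SI, against 2.18%, and 1 lower, Emilin2, against 2.1%, which had 4 UMIs in PDGFRAhi FB in LI and 0 in SI and for which no ratio is given. Fibroblasts exceeded visceral SMC in 3 of 22, Efemp1 with 1.34 in LI and 2.64 in SI and the proteases Mmp2 with 1.34 in LI and 1.36 in SI and Ctsk with 1.30 in LI and 1.25 in SI, against 1.38%, and were lower in 1, Thsd4 with -1.65 in LI and -1.45 in SI, against 2.4%. Against pericyte-like cells 8 of 20 partners were higher in fibroblasts, against 4.29%, and 0 lower, against 4.74%. A single partner called among 20 to 22 is little to read against these shares.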

How the data were processed

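Stromal cells of intestinal grafts were measured by droplet single-cell RNA-seq in 2 libraries, 1 per group. The submitters' processing notes name Cell Ranger 3.1.0, Seurat 3 and the genome build mm10. The authors deposited raw UMI counts per gene and barcode, whole numbers with no normalization and no cell type labels that were used here. The annotation release is not given in the sources used here.

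Barcodes with fewer than 500 genes or over 10% of UMIs from mitochondrial genes were left out. Scrublet (scanpy 1.11.5) called no doublets by its own threshold, so none were removed in the main values, and removal of the highest scores at 0.8% per 1000 barcodes was an alternative. Each cell was placed in a class by the number of markers with a UMI: 4 of 8 for PDGFRAhi FB, 3 of 6 for adventitial-like FB, 3 of 5 including Grem1 for CD81 FB, 3 of 5 for Fgfr2 FB, 4 of 7 for visceral muscle and 4 of 9 for mural cells. Many cells lay near these limits: 282 LI fibroblasts had exactly the 3 adventitial markers needed and 916 had 1 fewer.

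Intervals are at 95%: exact Poisson for pooled CPM, Clopper-Pearson for shares, and for ratios the exact binomial interval of how a gene's UMIs divide between the 2 groups. Genes counted as background had at least 10 CPM in a group compared. Cells are not replicates, so no test was made, and the interval step was tested on simulated data. The members, partner genes, gates and marker lists were chosen with earlier results of these data known. Partner genes are named if among the 4 highest in fibroblasts or past 2-fold between LI and SI, and a count of 5 or fewer is named after its values were seen. Alternatives were stricter and looser cell filters, stricter gates, clusters in place of gates, doublet removal, a pseudocount of 1 CPM, mean per-cell CPM, TMM scaling (edgeR 4.0.16), thinning to 1000 UMIs and female cells only. Leaving out MHC class II cells, counting ungated cells as other FB, splitting by sex and reading cells without an MHC class II marker alone were added after seeing the data. Python 3.11.15, numpy 2.4.6, scipy 1.17.1 and pandas 2.3.3 were used. Sequences are from RefSeq (GRCm38.p6).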

Additional observations from a re-analysis of the deposited data

Results flagged for a closer look

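Eln in vascular muscle-like cells lay on opposite sides of the fibroblast-lineage level in the 2 libraries, with a log2 ratio of -0.32 in LI and 0.21 in SI. It is given here because the direction differed between the groups, and the difference was not tested.

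Fbn2 was higher in LI than in SI in female fibroblasts, with a log2 ratio of 0.58, and lower in LI in male fibroblasts, with -0.77. The opposite signs in the 2 sexes drew attention to it, and the difference was not tested. Fbln5 showed the same arrangement, with 0.21 in female and -1.27 in male fibroblasts, and this difference was not tested either. Both genes were read over pooled fibroblast classes, which held unlike shares of male cells in LI.

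Fbln2 reached 736 CPM (623 to 863) in the 16 SI cells gated as mesothelial, which lie outside the classes compared because they number under 50. The 18 LI cells of that gate had 143 CPM (78.2 to 240). The level in SI stands above that of SI adventitial-like FB, 404 CPM, and 150 UMIs stand behind it.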

How the results depend on the processing

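No paired analysis was possible because there was 1 library per group. The count of members past 2-fold higher in fibroblasts than in visceral SMC moved from 1 to 2 with doublets removed and with TMM scaling, to 3 with classes from clusters, and to 4 with stricter gates and with the mean of per-cell CPM. With classes from clusters, 2 members in place of 1 were past 2-fold between LI and SI fibroblasts, as Fbln2 joined Lox. The count past 2-fold lower in adventitial-like FB fell from 1, Emilin1, to 0 with TMM scaling. The counts of members highest in the same class, of members higher in adventitial-like FB and of partner genes past 2-fold between LI and SI stayed within 1.5 times their main value under the alternatives run, and no member ratio that was called changed sign. The members behind the first count did change, as Eln and Mfap4 left it in several settings. The sizes of member ratios did depend on how classes were drawn. With classes from clusters, 36 left their main counting interval and 14 did not, and with stricter gates 34 and 16. Clusters gave 2542 Fgfr2 FB in LI against 302 by gates, and 771 adventitial-like FB against 331. Log2 LI over SI in fibroblast-lineage cells ranged from 1.13 to 1.39 for Lox, from 0.49 to 1.11 for Fbln2, from -0.62 to -0.44 for Fbn1 and from -0.45 to -0.30 for Eln. Mfap5, with -0.18 to 0.20, and Fbln1, with -0.15 to 0.06, took both signs. Of the other ratios, which were short of 2-fold, Mfap5 fibroblast over visceral SMC in LI turned from -0.17 to 0.33 with stricter gates, and adventitial-like over other fibroblasts in SI turned from -0.13 to 0.47 for Lox with female cells alone and from -0.14 to 0.29 for Eln with classes from clusters, and the cause was not tested. TMM scaling shifted log2 LI over SI by -0.015, and the median over all genes tested went from 0.0050 to -0.0082. With a minimum of 50 CPM the share of genes past 2-fold between LI and SI was 2.9% (92 of 3174), and with no minimum 0.786% (150 of 19093). Depth limits Fbn2 most, which had a UMI in 8.34% and 5.44% of fibroblasts thinned to 2000 UMIs.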
